A study of Caenorhabditis elegans with 6 samples.

Results

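F35E12.9, F35E12.10 and cld-9 are 3 protein-coding genes of Caenorhabditis elegans that follow one another without another protein-coding gene between them on chromosome V, in the order of the RefSeq gene table of assembly WBcel235. They were taken by their symbols in the array platform's annotation, and they were chosen by their log2 signal, as adjacent genes that were higher with albendazole than with DMSO on these same arrays. That difference is therefore given as a description with no test. They are 3 of 17118 genes measured. Each has 1 probe set (NCBI genes 179867, 179868 and 179869), and the annotation lists a single gene for every one of these 3 probe sets. The probe set of F35E12.10 carries the suffix _s_at, which Affymetrix gives to probe sets whose probes match more than one transcript. Which transcripts these are was not tested.

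The arrays measured whole worms of strain CB3474. Its ben-1 gene has the mutation e1880. This gene encodes a β-tubulin, and without it worms resist benzimidazole drugs such as albendazole. In the ABZ group, 3 cultures received 300 µg/ml albendazole in 1.5% DMSO by volume for 4 h. In the DMSO group, 3 cultures received 1.5% DMSO alone for 4 h. Before that, all cultures had grown in liquid at 20 °C from first-stage larvae for 70 h. The mutation was present in both groups, and no worms without it were compared.

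The worm has no adaptive immune system, and its intestine answers microbes and toxins with secreted proteins, among them lysozymes, C-type lectins and proteins with a CUB-like domain. The symbol cld stands for this CUB-like domain. Several genes of the family are widely used as readouts of the PMK-1 mitogen-activated kinase cascade, which controls much of the intestinal immune response. One of these readouts is irg-5, an infection response gene and the next protein-coding gene before F35E12.9. F35E12.9 and F35E12.10 carry no gene name beyond the sequence identifier in the tables used here.

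The array of DMSO replicate 1 stood apart. The SD of its log2 values across probe sets was 1.73, against 1.98 to 2.02 on the other 5 arrays, and its correlation with each of them across probe sets was 0.934 to 0.943, against 0.988 to 0.996 among the others. Probe sets are not independent replicates. Values without this array are therefore given beside the results. All 26 tissue markers looked up had a probe set, from intestine, body muscle, pharynx, epidermis, neurons, germ line, sperm and yolk, and none had an unadjusted p under 0.05 between the groups in limma. When DMSO replicate 1 was left out, 3 had one: the intestinal actin gene act-5, the syntaxin gene unc-64 and the germ granule gene pgl-1, with log2 differences of 0.31, 0.23 and -0.245. Of all 17118 genes, 467 higher and 486 lower had one in that setting.

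All 3 genes had higher signal with albendazole, by 1.36- to 1.90-fold, and in each the 3 ABZ values lay above the 3 DMSO values. This pattern is not rare on these arrays. It was seen at 7.81% of the 22548 probe sets tested, and the opposite pattern at 10.1%. Over the whole table limma called 0 probe sets higher (0%) and 0 lower at an adjusted p under 0.05. Before adjustment, p was under 0.05 for 343 higher (1.52%) and 77 lower probe sets (0.341%).

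The cld-9 gene had the largest difference of the 3. Its log2 signal was 8.96, 8.47 and 8.45 in ABZ replicates 1, 2 and 3, against 7.62, 7.75 and 7.73 in DMSO replicates 1, 2 and 3. The DMSO arrays lay within 0.13 of each other, while ABZ replicate 1 stood above the other ABZ arrays. The groups were separated by 0.70, the step from the highest DMSO to the lowest ABZ value. The mean was 8.62 ± 0.29 in the ABZ group and 7.70 ± 0.07 in the DMSO group (SD over 3 arrays each), a log2 difference of 0.92 (SE 0.16) or 1.90-fold. Without DMSO replicate 1 the difference was 0.88, and without ABZ replicate 1 it was 0.76. A larger difference was found at 52 probe sets, or 0.231% of the table.

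F35E12.9 had a log2 signal of 9.24, 9.22 and 9.09 in ABZ replicates 1, 2 and 3, against 8.42, 8.69 and 8.62 in DMSO replicates 1, 2 and 3. The lowest value was that of DMSO replicate 1, and the separation of the groups was 0.40, larger than the range within either group (0.15 with albendazole and 0.27 with DMSO). The ABZ arrays averaged 9.18 ± 0.08 and the DMSO arrays 8.58 ± 0.14 (SD over 3 arrays each), a log2 difference of 0.61 (SE 0.12) or 1.52-fold. It was 0.53 without DMSO replicate 1. A larger difference was found at 421 probe sets (1.87%).

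F35E12.10 was the brightest of the 3 and had the smallest difference. Its log2 signal was 11.65, 11.46 and 11.61 in ABZ replicates 1, 2 and 3, against 11.11, 11.05 and 11.24 in DMSO replicates 1, 2 and 3. The groups were separated by 0.21, about as much as the range within each of them (0.19 with albendazole and 0.20 with DMSO). The ABZ arrays averaged 11.58 ± 0.10 and the DMSO arrays 11.13 ± 0.10 (SD over 3 arrays each), a log2 difference of 0.44 (SE 0.11) or 1.36-fold. It was 0.43 without DMSO replicate 1. A larger difference was found at 1395 probe sets (6.19%). Since the material was whole worms, more cells that express a gene and more RNA per cell cannot be told apart in any of these values.

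**Figure D1:**
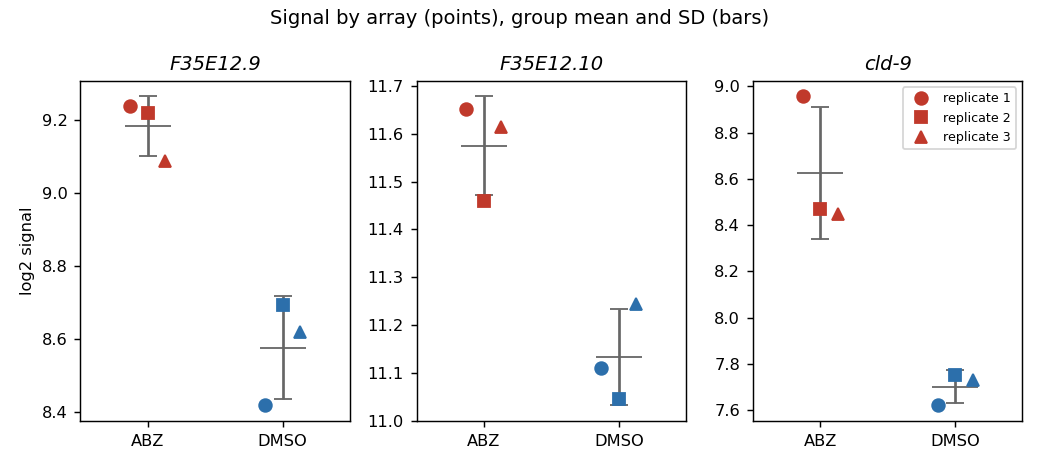
Log2 signal (vertical axis, 1 scale per gene, not starting at 0) of F35E12.9, F35E12.10 and cld-9 in the ABZ and DMSO groups. Points are single arrays with their replicate number as the symbol, the wide bar is the group mean and the whisker 1 SD (n = 3). In each gene the ABZ points lie above the DMSO points, with the smallest step, 0.21, in F35E12.10.

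Set side by side by replicate number, the log2 difference in replicates 1, 2 and 3 was 1.34, 0.72 and 0.72 for cld-9, 0.82, 0.53 and 0.47 for F35E12.9, and 0.54, 0.41 and 0.37 for F35E12.10. Replicate 1 gave the largest step in all 3 genes. For F35E12.9 and cld-9, that pair joins the highest ABZ value with the lowest DMSO value. Both sperm markers examined, msp-3 and msp-19, were also highest in replicate 1 of each group. The log2 signal of msp-3 was 12.75, 10.62 and 10.51 in ABZ replicates 1, 2 and 3, against 12.49, 10.87 and 10.29 in DMSO replicates 1, 2 and 3. The part of this in the values of the 3 genes was not tested.

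The place of a probe set among all probe sets of its own array does not depend on the spread of the array. On this scale cld-9 stood at the 69.1, 63.6 and 63.7 percentiles in ABZ replicates 1, 2 and 3, against 49.1, 52.9 and 52.8 in the DMSO replicates. F35E12.9 stood at 72.6, 72.9 and 71.6 with albendazole, against 67.0, 67.1 and 65.7 with DMSO. Both genes kept the groups apart. F35E12.10 did not: it stood at 94.6, 93.5 and 94.4 with albendazole, against 94.5, 91.3 and 92.6 with DMSO, so that DMSO replicate 1 lay among the ABZ arrays. The groups of F35E12.10 also overlapped after quantile and cyclic loess normalization, with log2 differences of 0.26 and 0.24. DMSO replicate 1 then lay among the ABZ arrays after the quantile method, and above all of them after cyclic loess. In the 2 brightest of 5 equal bins of probe sets, which hold F35E12.9 and F35E12.10, the median of DMSO replicate 1 minus the mean of the other arrays was -0.58 and -0.59. For F35E12.10 itself, DMSO replicate 1 minus the mean of the other DMSO arrays was -0.04. This reference leaves out the ABZ arrays, so the value cannot be set directly against the bin medians.

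**Figure D2:**
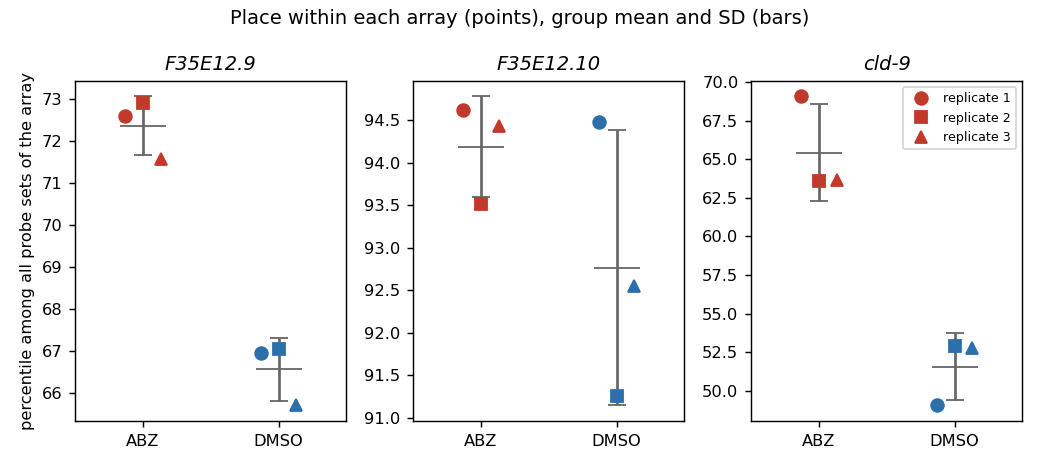
Percentile of F35E12.9, F35E12.10 and cld-9 among the 22548 probe sets of each array (vertical axis, 1 scale per gene, not starting at 0), by group. Points are single arrays, the wide bar is the group mean and the whisker 1 SD (n = 3). DMSO replicate 1 of F35E12.10, at 94.5, lies among the ABZ points, while the other genes keep the groups apart.

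The next question was how far along the chromosome the difference reaches. Of the 10 protein-coding genes on each side, 18 of 20 had a probe set of their own, and F20G2.6 and spi-4 had none. None of the 18 was called by limma at an adjusted p under 0.05, in any of the settings tried, and before adjustment p was under 0.05 for 4 higher and 0 lower genes, against 248 higher and 63 lower of all 17118 genes. With DMSO replicate 1 left out, it was so for 6 higher and 0 lower genes, against 467 higher and 486 lower of all genes. Their log2 differences were positive in 12 of 18 (66.7%), against 52.2% of all genes, with a median of 0.21 against 0.02 over all genes. In 6 of 18 (33.3%) all ABZ values lay above all DMSO values, against 7.17% of all genes, and in 0 of 18 below. Without DMSO replicate 1 the counts were 13 positive (41.4% of all genes were positive then) and 6 with all ABZ values above the remaining DMSO values (9.60% of all genes), and the median was 0.13. The count of 6 was 3 after quantile and 2 after cyclic loess normalization.

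The 2 genes directly before F35E12.9 also had higher values with albendazole. The irg-5 gene (NCBI gene 185307) had a log2 signal of 12.48, 11.62 and 12.74 in ABZ replicates 1, 2 and 3, against 11.59, 11.18 and 10.27 in DMSO replicates 1, 2 and 3. The groups nearly met, with ABZ replicate 2 just above DMSO replicate 1. Its log2 difference of 1.26 (SE 0.42) was larger than that of any of the 3 genes, and its SD within the groups was larger too, 0.58 on ABZ and 0.67 on DMSO arrays. It was not called by limma (adjusted p 0.651), and without DMSO replicate 1 the log2 difference was 1.55. F35E12.6, which lies before irg-5, had 12.47, 12.33 and 12.08 in ABZ replicates 1, 2 and 3, against 11.98, 11.95 and 11.56 in DMSO replicates 1, 2 and 3. The groups did not overlap, the log2 difference was 0.46 (SE 0.17), and it was not called by limma (adjusted p 0.651).

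The genes next to this run had smaller or negative differences. Before F35E12.6, dct-17, a gene downstream of the FOXO factor DAF-16, had a log2 difference of -0.08 (0.11 without DMSO replicate 1) and overlapping groups. The F-box gene fbxa-181 had 0.21, with groups that did not overlap, at a mean log2 signal of only 6.11 on ABZ and 5.90 on DMSO arrays, and F35E12.2 had -0.03. After cld-9, F20G2.1 had a log2 difference of -0.25 with overlapping groups, F20G2.2 had 0.22 without overlap, F20G2.3 had -0.12, and the astacin protease gene nas-24 had 0.05. These 4 values were -0.36, 0.19, 0.05 and 0.43 without DMSO replicate 1. Further along, F20G2.5 had 9.64, 10.06 and 9.21 in ABZ replicates 1, 2 and 3, against 8.69, 8.41 and 8.54 in DMSO replicates 1, 2 and 3, and the groups did not overlap. Its log2 difference was 1.09 (SE 0.23), and the gene after it, F53C11.1, had 0.66 (SE 0.15). Neither was called by limma (adjusted p 0.651 for each). F53C11.1 has 2 probe sets that list it alone, and only the brighter is given here.

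**Figure D3:**
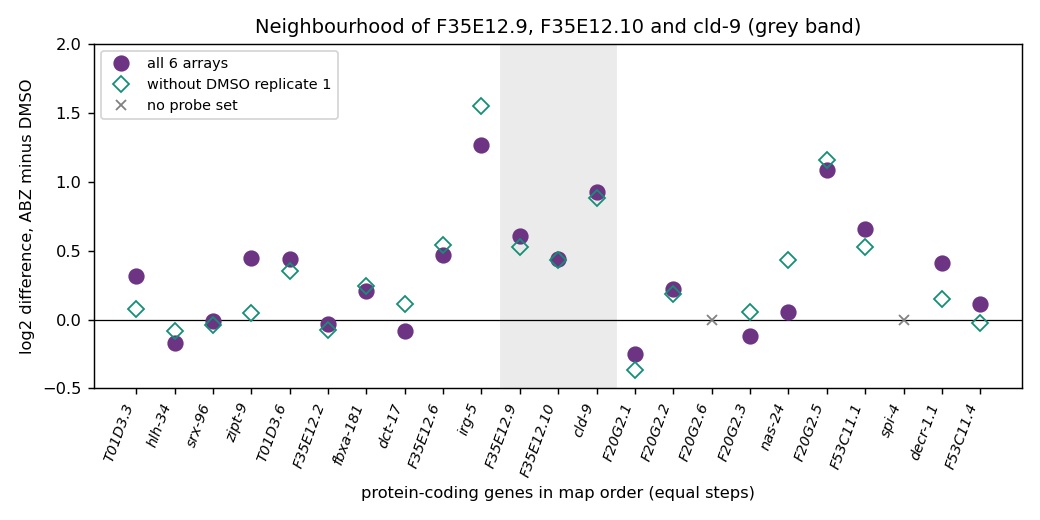
Log2 difference, ABZ minus DMSO (vertical axis), of the 3 genes (grey band) and of 10 protein-coding genes on each side, in map order with equal steps. Filled circles use all 6 arrays, open diamonds leave out DMSO replicate 1, and crosses on the zero line mark genes without a probe set. The 5 genes from F35E12.6 to cld-9 lie between 0.44 and 1.26, and with all 6 arrays dct-17 and F20G2.1 on either side of them lie below 0.

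Runs of this kind were few. Over all chromosomes, 11573 sets of 3 consecutive protein-coding genes had all 3 genes measured, and in 17 of them (0.147%) every gene had all ABZ values above all DMSO values. The 17 sets fall into 13 separate places: 10 places with 3 genes, 2 with 4 genes and 1 with 5 genes, which is the run from F35E12.6 to cld-9. Since the 3 genes were chosen as adjacent genes with higher signal, their own presence in this count is no finding. After quantile or cyclic loess normalization the groups of F35E12.10 overlapped, so the run of 5 did not hold. The count of neighbours without overlap also fell, from 6 to 3 and 2. Whether irg-5 and F35E12.6 were among those that remained was not recorded. Another of the 13 places, named after its values were seen, holds C29F7.1, C29F7.2 and C29F7.3 on chromosome X, with log2 differences of 0.93, 2.28 and 0.73. Whether probe sets of neighbouring genes tell similar sequences apart was not tested.

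The wider CUB-like family was described next, from genes with a cld symbol and 11 named genes, with cld-9 itself left out. Whether each listed protein holds the domain was not checked, since no protein sequences were used here. Of 12 genes, 10 had a probe set of their own, and all 10 are among the 11 named genes. These were chosen with earlier results of these data known, so the counts describe this list and not the family at large. All 10 had a positive log2 difference, against 52.2% of all genes. The median was 0.64, against 0.02 over all genes, and the range was 0.13 to 1.26. None was called by limma at an adjusted p under 0.05. Before adjustment, p was under 0.05 for 3 higher and 0 lower genes, against 248 higher and 63 lower of all 17118 genes. In 3 of 10 genes all ABZ values lay above all DMSO values, against 7.17% of all genes. Without DMSO replicate 1 all 10 were still positive, with a median of 0.73, 6 higher genes had an unadjusted p under 0.05 (467 higher and 486 lower of all genes), and in 7 of 10 all ABZ values lay above both remaining DMSO values (9.60% of all genes). DMSO replicate 1 held the highest DMSO value in all of the 10 genes but dod-19 and K08D8.5. Leaving it out raises the differences of the others by itself. The count of 3 was 6 without ABZ replicate 2 and 5 without ABZ replicate 3, settings in which the share of all genes was not counted. After quantile and cyclic loess normalization it was 2 and 2, with medians of 0.52 and 0.51. The family list includes irg-5, so it shares a gene with the list of neighbours.

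The infection response gene irg-6 (NCBI gene 183126) had a log2 signal of 8.45, 8.84 and 8.18 in ABZ replicates 1, 2 and 3, against 7.81, 7.01 and 6.86 in DMSO replicates 1, 2 and 3. The groups did not overlap, and the log2 difference was 1.26 (SE 0.30), with an adjusted p of 0.651 in limma. Without DMSO replicate 1 the difference was 1.55. K08D8.5 had 8.54, 8.37 and 8.52 in ABZ replicates 1, 2 and 3, against 7.71, 7.62 and 8.25 in DMSO replicates 1, 2 and 3, a log2 difference of 0.62 (SE 0.19). DMSO replicate 3 came close to the ABZ arrays there. F55G11.8 had a log2 difference of 0.48 with overlapping groups.

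Some genes of the family spread widely within the groups. In dod-24, chosen after its values were seen, the log2 signal was 11.31, 8.95 and 10.83 in ABZ replicates 1, 2 and 3, against 11.02, 8.91 and 8.45 in DMSO replicates 1, 2 and 3. Replicate 1 was the highest in both groups, and the log2 difference of 0.91 (SE 0.87) was about as large as its error. It was 1.69 without DMSO replicate 1. To complete the list, irg-4, dod-22, dod-19, C17H12.8 and dod-17, which also had overlapping groups, had log2 differences of 1.14, 0.66, 0.35, 0.20 and 0.13. A probe set that lists both dod-21 and cld-1 had 6.59, 5.84 and 6.37 in ABZ replicates 1, 2 and 3, against 5.95, 5.86 and 5.80 in DMSO replicates 1, 2 and 3. It cannot be given to one of these genes and was left out of the count.

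**Figure D4:**
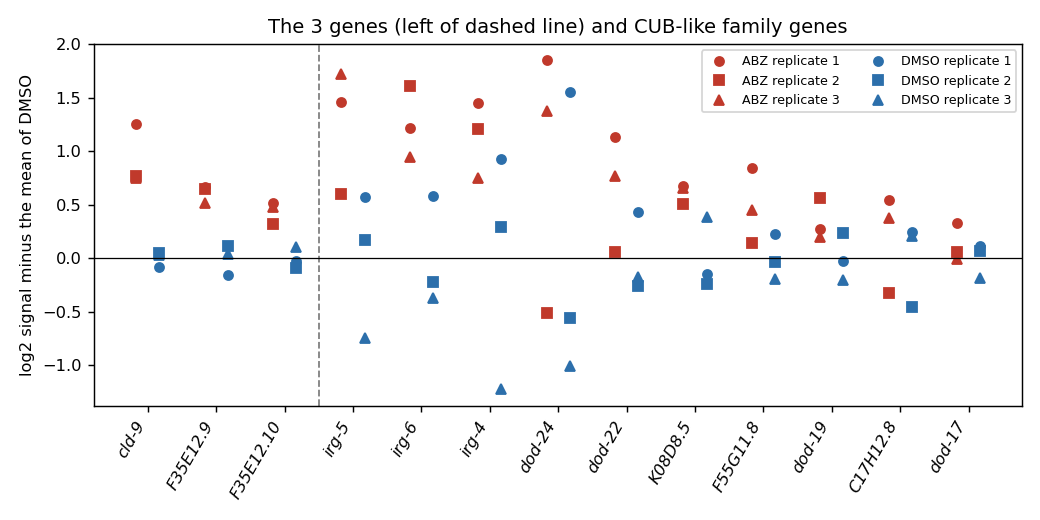
Log2 signal of each array minus the DMSO mean of the same gene (vertical axis), for the 3 genes left of the dashed line and 10 CUB-like family genes right of it. Red points left of each tick are ABZ arrays and blue points right of it are DMSO arrays, with the replicate number as the symbol. Points of F35E12.9, F35E12.10 and cld-9 lie closer within groups than those of irg-5, irg-4 or dod-24. The ABZ points of dod-17, dod-19 and K08D8.5 lie closer together than those of cld-9.

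The last list, of 25 genes with 22 found by symbol, held the PMK-1 cascade with other immune regulators and response genes. Whether each listed gene depends on PMK-1 was not checked. This list too was chosen with earlier results of these data known. No probe set that lists 1 gene carried the symbols nsy-1, C09H5.2 or F49F1.6. Whether these genes stand under other symbols was not checked, so a gene measured under another symbol is missing from the counts. The measured gene mul-1 stands between F49F1.5 and F49F1.7 on chromosome IV, the place where F49F1.6 would be sought. Its log2 difference was 0.64, with all ABZ values above all DMSO values, and it is not in the counts. None of the 22 was called by limma at an adjusted p under 0.05. Before adjustment, p was under 0.05 for 3 higher and 0 lower genes, and these 3 were irg-5, irg-6 and K08D8.5, which the family list holds too. Over all genes there were 248 higher and 63 lower. The log2 difference was positive in 18 of 22 (81.8%, against 52.2% of all genes), with a median of 0.28, and in 4 of 22 (18.2%, against 7.17%) all ABZ values lay above all DMSO values. Without DMSO replicate 1 the median was 0.09, with 17 positive (77.3%, against 41.4%) and 6 without overlap (27.3%, against 9.60%). In that setting 6 higher and 0 lower genes had an unadjusted p under 0.05 in limma, against 467 higher and 486 lower of all 17118 genes. The count of 4 was 12 without ABZ replicate 3 and 9 without DMSO replicate 3, settings in which the share of all genes was not counted. It was 2 after quantile and 3 after cyclic loess normalization.

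The values of cascade genes and of immune response genes are given side by side. The kinase gene pmk-1 had 8.97, 8.87 and 8.51 in ABZ replicates 1, 2 and 3, against 7.59, 8.67 and 8.28 in DMSO replicates 1, 2 and 3, a log2 difference of 0.60 that became 0.31 without DMSO replicate 1. The adaptor gene tir-1 and the kinase gene sek-1 had log2 differences of -0.19 each, and 0.03 and 0.09 without that array. The intestinal GATA factor gene elt-2 had 0.03. Among response genes, irg-4 had 13.45, 13.20 and 12.74 in ABZ replicates 1, 2 and 3. In DMSO replicates 1, 2 and 3 it had 12.92, 12.28 and 10.77. Its groups overlapped, with an adjusted p of 0.651 in limma. The log2 difference of sysm-1 was 0.95 with overlapping groups, and 1.48 without DMSO replicate 1. The infection response genes irg-1 and irg-2 had -0.09 and -0.13, and -0.08 and -0.38 without that array. They are not taken here as readouts of PMK-1. The genes pmk-1, tir-1, sek-1, elt-2, sysm-1, irg-1 and irg-2 were named after their values were seen. Whether kinases and response genes differ from each other was not tested.

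The intestine expresses many of these immune genes. The mean log2 signal of 7 intestine markers was 11.04, 11.02 and 10.76 in ABZ replicates 1, 2 and 3, against 10.56, 10.88 and 10.70 in DMSO replicates 1, 2 and 3, so the groups overlapped. All 7 had a positive log2 difference, against 52.2% of all genes, from 0.03 for elt-2 to 0.62 for the peptide transporter gene pept-1. In 2 of 7 all ABZ values lay above all DMSO values, against 7.17% of all genes. With DMSO replicate 1 left out, the 7 log2 differences lay between -0.28 and 0.36. Only that of ges-1 was negative, while 41.4% of all genes were positive in that setting. Their part in the values of the 3 genes was not tested.

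Genes with the most similar pattern were sought by Pearson's r over the 6 arrays, among 12160 probe sets that list 1 gene and have an SD of at least 0.2. The points share the same 6 arrays, DMSO replicate 1 included, and r is a description. For F35E12.9 the 5 most similar were the F-box gene fbxa-60 (r = 0.989), the G protein gamma subunit gene gpc-1 (0.987), the transthyretin-related gene ttr-24 (0.987), F53C11.1 (0.985) and the epidermal antimicrobial peptide gene nlp-33 (0.985). F53C11.1 is also 1 of the 18 neighbours, 7 positions beyond cld-9. For F35E12.10 they were R12E2.15 (0.979), warf-1 (0.973), hpo-6 (0.969), R07B7.6 (0.956) and the F-box gene fbxa-182 (0.953). For cld-9 they were R07B7.6 (0.982), F57B7.2 (0.976), tag-343 (0.975), H43E16.1 (0.975) and dbd-19 (0.966).

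The 3 genes were not each other's nearest in pattern. Taking all probe sets in this ranking, cld-9 was in place 32 for F35E12.9 (r = 0.948) and in place 9 for F35E12.10 (r = 0.932), and F35E12.10 was in place 211 for F35E12.9 (r = 0.882). These r are high by the choice of genes that share a difference between the groups. After each group mean was subtracted, r was 0.51 for F35E12.9 and cld-9, 0.44 for F35E12.10 and cld-9, and -0.11 for F35E12.9 and F35E12.10. With DMSO replicate 1 left out, 1 of the 5 genes nearest to F35E12.9, 0 of those nearest to F35E12.10 and 0 of those nearest to cld-9 stayed among the nearest 5. The choice of nearest genes changes with that array.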

How the data were processed

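Transcripts of 6 worm cultures were measured on Affymetrix arrays, 1 array per sample, from 1 µg of total RNA. The deposited values are log2 signals per probe set. Per the submitters' processing notes, RMA and limma were used, with no version or order of steps; the log2 scale was inferred from the range of 4.89 to 14.89. The genome build is not given in the sources used here. No detection calls or raw scans were used, and precision is set by how few arrays there are.

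Of 22625 probe sets, 77 controls were left out. Gene names came from the platform annotation; 20766 probe sets list 1 gene, and 20701 were found by gene number in the RefSeq table of assembly WBcel235, which also gave the gene order. A gene in a list is represented by its brightest probe set that lists it alone. Groups were compared with limma 3.58.1 in R 4.3.3 (lmFit, eBayes, two-sided, group as the term), with Benjamini-Hochberg adjustment over 22548 probe sets. SE is from this fit. The steps were tested on simulated data.

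Named are the 3 genes, genes up to 5 positions away, up to 4 genes with the smallest p in each list, and the 5 most similar in pattern to each. The members and lists were chosen with earlier results of these data known. Alternatives were other scalings, a filter on dim probe sets, a replicate block, an intensity trend with robust settings, array weights and leaving out each array. The labels call the samples biological replicates but tie no numbers to shared cultures. For that reason the numbers were not taken as pairs in the main fit. Deviations from group means of same-numbered arrays correlated at 0.125, 0.264 and 0.066 across probe sets. These r cannot settle whether a number marks a shared culture. A planned list of homologues by protein sequence was not made, since no protein sequences were used here.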

Additional observations from a re-analysis of the deposited data

How the results depend on the processing

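The log2 differences of the 3 genes and the medians of the 3 lists were positive in every setting in which they were recomputed. The log2 difference of F35E12.9 was 0.44 after quantile and 0.42 after cyclic loess normalization, and that of F35E12.10 was 0.26 and 0.24. With single arrays left out, the range was 0.53 to 0.67 for F35E12.9, 0.40 to 0.50 for F35E12.10 and 0.76 to 1.01 for cld-9. Groups of 2 of the 3 genes did not overlap after quantile or cyclic loess normalization, or by ranks within arrays, a setting added after seeing the data. With 1 array left out, counts of genes without overlap were 3 to 7 in the CUB-like family. They were 4 to 12 in the immune list and 6 to 9 among the neighbours. Fewer arrays make this criterion easier to meet. The share of all genes was 7.17% with all arrays and 9.60% without DMSO replicate 1, and it was not counted for other arrays left out. After quantile and cyclic loess normalization the neighbours had 3 and 2, the CUB-like family 2 and 2, and the immune list 2 and 3. The median of the neighbours was 0.32 with the dimmest probe sets (1 in 3) left out and 0.10 with array weights. That of the immune list, 0.28 as reported, was 0.09 without DMSO replicate 1, 0.10 with array weights, 0.15 after quantile and 0.11 after cyclic loess normalization. Single genes did change sign without DMSO replicate 1, among them dct-17, F20G2.3, tir-1 and sek-1. With array weights 5 probe sets were called, and 0 in the lists; DMSO replicate 1 then had a weight of 0.0427, against 0.902 to 3.84 on the other arrays. At an unadjusted p under 0.05, array weights gave 1108 higher and 1124 lower, and single arrays left out gave 97 to 669 higher and 8 to 625 lower. The lower count was 23 without dim probe sets, 135 after quantile and 156 after cyclic loess normalization. With the replicate number as a block, 240 were higher and 19 lower, 0 were called, and the log2 differences of the 3 genes were as without it. Of the 5 most similar genes, 1, 0 and 0 stayed for F35E12.9, F35E12.10 and cld-9 without DMSO replicate 1. The cause of these shifts was not tested. Each of the 3 genes has 1 probe set, so no other could be compared.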
